A study of Mus musculus with 4 samples.

Results

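The neurohumoral receptors of the heart examined here were *Adrb1*, *Adrb3*, *Adra1a* and *Adra1b*, which bind noradrenaline and adrenaline, *Chrm2*, which binds acetylcholine, and *Adora1*, *Adora2a* and *Adora2b*, which bind adenosine. They were taken by name, not by any measured value, but with earlier results of these data known. They are 8 of the 21755 protein-coding genes of the GENCODE annotation used. Chromatin accessibility at them was read from ATAC-Seq of nuclei sorted from whole hearts of male NuTRAP/Cdh5-Cre mice on a C57BL/6 background, aged 8 to 12 weeks, with 100 to 50000 nuclei and 2.5 µL of Tn5 per 50000 nuclei according to the labels. All samples carried the NuTRAP allele, which tags ribosomes with GFP once Cre has acted. All also carried Cdh5-Cre, which is driven by an endothelial promoter and so marks endothelial cells and their descendants. Single, non-dividing nuclei were gated before sorting by GFP. There were 2 replicates of GFP+ (endothelial) nuclei and 2 of GFP- (non-endothelial) nuclei, and each population is represented by 1 list of peaks that the authors called on its replicates jointly. No replicate values and no read depths are therefore given, no difference between the lists has a replicate check, and no p-values are reported. Because the sorted GFP- nuclei are a mixture of cell types, more nuclei of a type with an open site and wider opening in each nucleus cannot be told apart.

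These receptors are the membrane proteins through which the autonomic nerves and local metabolism set heart rate, force of contraction and coronary flow. *Adrb1* and the adenosine receptors *Adora2a* and *Adora2b* couple to the stimulatory G protein and raise cyclic AMP, *Chrm2* and *Adora1* couple to the inhibitory G protein, lower cyclic AMP and open potassium channels, and *Adra1a* and *Adra1b* act through Gq and phospholipase C. *Adrb1* and *Chrm2* are known for the sympathetic and vagal control of cardiomyocytes, and *Adora2a* for the dilation of coronary vessels.

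ATAC-Seq marks DNA that the Tn5 transposase can reach, and a peak is a stretch where its insertions pile up. The area of a peak is a total over its length that the authors' caller gave, and it was not taken as a count of reads or insertions. The p-value at the summit of a peak came from the same calls, so ranks by it are no independent check. Since the lists were called separately, each peak was given the percentile rank of its area within its own list (0 for the smallest, 100 for the largest). A start peak overlapped an annotated transcript start or the 250 bp to either side of it. When start ranks were compared between the lists, a gene without a start peak in a list was given rank 0 there. Such zeros entered the differences, medians and counts over genes with a start peak, which means a start peak in at least 1 list. Some of these differences are therefore between a peak and none. A body peak overlapped the gene record otherwise, and an upstream peak overlapped the 50 kb before the record. A peak was shared when it overlapped a peak of the other list by at least 1 bp. All coordinates are on mm10 (GRCm38).

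The sequences on which the start results turn are given first. RefSeq promoters on GRCm38.p6, which run from 250 bases before to 50 bases after a start and are written 5′ to 3′ on the transcribed strand, were at hand for 5 of the 8 receptors in 7 entries. *Adrb3*, *Adra1a* and *Adora2a* had no entry. Capitals mark matches on either strand to 9 searched words: GGGCGG for the GC box, TATAAA for the TATA box, TGACGTCA for CRE, TGANTCA for AP-1, CAGGAAGT for ETS factors, AGATAAG for GATA factors, CTAAAAATA for MEF2, CATTCCT for TEAD and CAGCTG for the E-box. *Adrb1* is shown because its start peaks ranked highest, the 2 *Adra1b* promoters because only the first lay in peaks, the 2 *Adora1* promoters because the peaks reached into both, and *Chrm2* and *Adora2b* because their start peaks differed most between the lists.
Adrb1, chr19:56721867-56722166, + strand: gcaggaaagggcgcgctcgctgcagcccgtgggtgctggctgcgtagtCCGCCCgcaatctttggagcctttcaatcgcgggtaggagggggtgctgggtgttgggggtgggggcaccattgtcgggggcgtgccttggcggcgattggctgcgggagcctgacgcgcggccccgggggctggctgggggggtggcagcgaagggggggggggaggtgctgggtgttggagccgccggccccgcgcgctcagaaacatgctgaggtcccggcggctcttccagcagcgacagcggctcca
Adra1b, chr11:43836440-43836739, - strand: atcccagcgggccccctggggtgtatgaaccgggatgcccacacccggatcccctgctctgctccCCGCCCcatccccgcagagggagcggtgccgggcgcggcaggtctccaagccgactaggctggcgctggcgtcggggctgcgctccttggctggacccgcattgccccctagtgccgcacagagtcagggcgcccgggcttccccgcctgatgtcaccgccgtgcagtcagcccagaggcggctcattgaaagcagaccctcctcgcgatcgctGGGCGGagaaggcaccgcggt
Adra1b, chr11:43901188-43901487, - strand: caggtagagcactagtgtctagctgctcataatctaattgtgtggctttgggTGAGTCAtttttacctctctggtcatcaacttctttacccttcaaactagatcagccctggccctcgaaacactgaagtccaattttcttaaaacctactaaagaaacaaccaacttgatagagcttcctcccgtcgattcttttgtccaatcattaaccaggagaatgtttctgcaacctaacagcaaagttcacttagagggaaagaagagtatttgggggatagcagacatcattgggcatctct
Adora1, chr1:134234807-134235106, - strand: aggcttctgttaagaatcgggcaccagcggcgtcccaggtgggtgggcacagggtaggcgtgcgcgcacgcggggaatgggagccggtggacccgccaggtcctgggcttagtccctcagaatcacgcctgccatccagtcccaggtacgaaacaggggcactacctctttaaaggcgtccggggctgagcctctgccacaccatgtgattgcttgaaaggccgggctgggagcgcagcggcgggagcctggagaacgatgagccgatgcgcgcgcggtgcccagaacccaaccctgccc
Adora1, chr1:134235408-134235707, - strand: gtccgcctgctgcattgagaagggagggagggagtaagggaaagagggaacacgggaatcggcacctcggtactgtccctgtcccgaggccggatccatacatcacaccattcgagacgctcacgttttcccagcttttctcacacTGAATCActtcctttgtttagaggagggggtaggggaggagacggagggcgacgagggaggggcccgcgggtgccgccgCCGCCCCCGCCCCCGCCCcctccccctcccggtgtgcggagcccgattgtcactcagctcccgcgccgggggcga
Chrm2, chr6:36387834-36388133, + strand: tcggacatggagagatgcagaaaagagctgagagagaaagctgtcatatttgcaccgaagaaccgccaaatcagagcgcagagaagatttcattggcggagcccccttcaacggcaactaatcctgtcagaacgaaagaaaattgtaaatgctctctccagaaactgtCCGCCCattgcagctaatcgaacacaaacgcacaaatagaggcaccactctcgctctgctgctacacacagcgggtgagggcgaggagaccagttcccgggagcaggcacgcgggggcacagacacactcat
Adora2b, chr11:62248734-62249033, + strand: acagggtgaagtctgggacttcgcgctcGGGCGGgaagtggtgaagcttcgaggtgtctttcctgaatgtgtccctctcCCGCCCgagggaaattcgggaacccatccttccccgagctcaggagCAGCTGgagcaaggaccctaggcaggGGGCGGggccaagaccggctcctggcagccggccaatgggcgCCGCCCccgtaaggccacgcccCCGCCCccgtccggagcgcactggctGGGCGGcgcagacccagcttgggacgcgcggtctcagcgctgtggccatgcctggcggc

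The *Adra1b* promoter inside the peaks was 71.3% G and C with 2 GC boxes, and the one outside them was 42.3% G and C with no GC box and 1 AP-1 word. *Adora2b* held 6 GC boxes and 1 E-box, *Adrb1* and *Chrm2* 1 GC box each, and the outer *Adora1* promoter 3 adjoining GC boxes and 1 AP-1 word. The inner *Adora1* promoter, which contained the start summits of both lists, held none of the words. Of all 32851 promoters of the table, 35.7% held a GC box, 7.81% an AP-1 word and 16.3% the E-box. The TATA box (13.6% of all promoters), CRE (1.79%), ETS (3.33%), GATA (3.04%), MEF2 (0.517%) and TEAD (5.36%) words were in none of the 7 promoters. No match overlapped one of another word here, and a match is a description of the letters only.

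A start peak was present for 7 of the 8 receptors in each list, and the exception in both was *Adrb3*. Among all protein-coding genes, 61.8% had a start peak in GFP- nuclei, 59.8% in GFP+ nuclei and 58.8% in both. The receptors have 28 annotated transcripts with 26 distinct starts, of which 19 lay at a GFP- peak and 18 at a GFP+ peak. For each gene, the highest-ranked start peak was then compared between the lists. By area, the rank was lower in GFP+ nuclei for 6 receptors and higher for *Adora2a*, and 5 of the 7 stayed within 10 points. Of all genes with a start peak, 71.4% were lower in GFP+ nuclei. These counts depended on the ranking. With ranks by area per bp, 4 receptors were lower and 3 higher, 3 stayed within 10 points, and *Adrb1*, *Chrm2* and *Adora2a* were the higher ones. With summit p-values all 7 were lower, and with the lists at equal length 4 were lower and 3 higher, *Adra1a*, *Adra1b* and *Adora2a*. *Chrm2* and *Adora2b* were lower in GFP+ nuclei by at least 20 points, as were 7.33% of all genes with a start peak, although the *Chrm2* difference turned to 3.66 with ranks by area per bp. No receptor was higher by that margin, as were 1.94% of all genes. The median difference, GFP+ minus GFP-, was -3.66 points over the 7 receptors and -0.814 over all genes with a start peak. Over the receptors it was -15.1 with ranks by area per bp and -0.823 with the lists at equal length. The median start rank of the receptors was 84.4 in GFP- and 83.1 in GFP+ nuclei, below the medians over all genes with a start peak of 90.3 and 88.6.

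**Figure D1:**
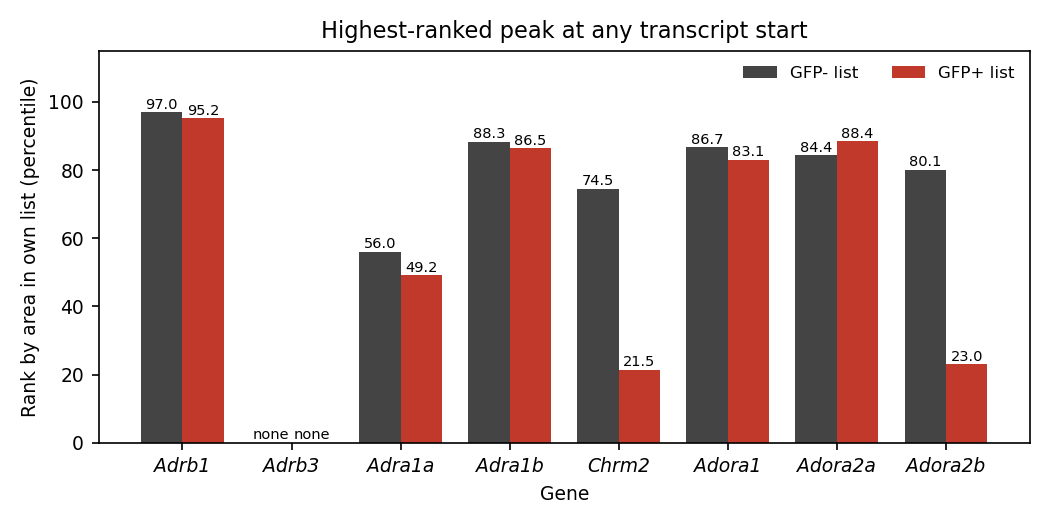
Percentile rank (by area, among the peaks of the same list) of the highest-ranked peak at any transcript start of each receptor in GFP- (dark bars) and GFP+ nuclei (red bars). The bars of *Chrm2* and *Adora2b* drop from 74.5 to 21.5 (the order of *Chrm2* turns with ranks by area per bp) and from 80.1 to 23.0, *Adrb3* has none, and the bars of each other receptor lie within 10 points of each other.

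*Adrb1*, the main beta-adrenergic receptor of cardiomyocytes, had the highest-ranked start peak of the receptors in both lists. The gene lies at chr19:56722199-56733113 on the + strand. Its GFP- peak ran over 3634 bp (chr19:56721104-56724737, area 7533, rank 97.0) and its GFP+ peak over 2523 bp (chr19:56721334-56723856, area 5706, rank 95.2). Both summits fell on the same base, at position -261 from the start of the record and inside the promoter printed above. The difference of -1.77 points turned to 7.36 with ranks by area per bp (61.6 in GFP- and 68.9 in GFP+). The peaks reached both annotated starts, or the 250 bp beside them, and covered 100% of the 1398 coding bases of the gene, and peaks in all covered 28.2% of the record in GFP- and 19.7% in GFP+ nuclei.

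An intronic *Adrb1* peak with its GFP- summit 5531 bp into the gene was also shared, at rank 56.2 in GFP- and 54.3 in GFP+ nuclei. Upstream, 4 of 5 GFP- peaks were shared, and all 4 ranked lower in GFP+ nuclei. The highest of them lay at chr19:56679562-56680460, ranked 83.1 in GFP- and 80.9 in GFP+ nuclei, and its neighbour at chr19:56675809-56677250 ranked 82.2 and 74.9. The other 2 shared peaks went from rank 61.6 to 48.7 and from 57.0 to 48.6. Only the lowest upstream peak of each list, at rank 23.3 in GFP- and 15.7 in GFP+ nuclei, had no partner.

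*Adrb3*, the beta-adrenergic receptor best known from adipose tissue, had no peak at any of its 5 starts in either list (chr8:27225776-27250616, - strand). Its body held no GFP- peak and a single GFP+ peak of 616 bp over the coding exon (chr8:27227414-27228029), with an area of 201 against a smallest area in the list of 200 and a rank of 0.213. That peak spanned 49.3% of the coding bases and overlapped no GFP- peak. The 50 kb before *Adrb3* held 8 peaks in each list, all of them shared. The highest lay at a start of the neighbour *Eif4ebp1*, at rank 99.1 in GFP- and 98.6 in GFP+ nuclei. The next highest, at rank 82.7 and 83.0, also lay at a start of that gene. All of the 8 but the peak nearest to *Adrb3* overlapped the record of another gene. Nearest to *Adrb3*, with its GFP- summit at position -3308 from the start of the record and at no start of another gene, lay a peak at rank 51.7 in GFP- and 52.0 in GFP+ nuclei.

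The alpha-adrenergic receptors *Adra1a* and *Adra1b* were alike in having most of their peaks inside the gene. The *Adra1a* record (chr14:66635251-66771168, + strand) had 1 start peak over all 6 of its starts, of 506 bp at rank 56.0 in GFP- nuclei and of 680 bp at rank 49.2 in GFP+ nuclei, the lowest GFP- start rank of the receptors. Higher ranks were reached in its body, which held 14 GFP- peaks, 9 of them shared, and 11 GFP+ peaks, 10 of them shared. A GFP- intronic peak of 1184 bp with its summit 1627 bp into the gene (chr14:66636022-66637205) ranked 82.6. GFP+ nuclei had 2 separate peaks within it, of 379 bp at rank 22.2 and of 472 bp at rank 74.5. The summit of the latter lay 23 bp from that of the GFP- peak, and its rank differed by -8.10 points. With start peaks counted to 1000 bp on either side, this GFP- peak became the start peak and the difference at *Adra1a* changed from -6.83 to -33.4. The GFP+ peak of rank 74.5 lay outside that window, so the -33.4 sets rank 82.6 against the rank of 49.2 at the starts, another site. With peaks ranked by area per bp the difference at *Adra1a* was -32.7.

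Deep in *Adra1a*, 3 neighbouring peaks were shared at high ranks. The peak at chr14:66732483-66733175, whose summit the annotation puts in a UTR of some transcripts, ranked 86.3 in GFP- and 80.6 in GFP+ nuclei. The next one, at chr14:66736353-66737360, ranked 84.9 and 74.8, and the one before it, at chr14:66730023-66730646, ranked 74.5 and 72.6. Among the lower peaks the order could turn, and an intronic peak with its GFP- summit 37773 bp into the gene ranked 18.8 in GFP- and 46.5 in GFP+ nuclei. Of the 5 unshared GFP- peaks the highest reached rank 46.0, and the single unshared GFP+ peak ranked 23.0. The 50 kb before *Adra1a* had no peak in either list.

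*Adra1b* had peaks at the inner of its 2 starts and none at the outer one, in both lists. The outer start is the end of the record (chr11:43774606-43901210, - strand), and the inner start lies at base 43836332. The inner start peak was 1070 bp long at rank 88.3 in GFP- nuclei (chr11:43835904-43836973) and 1268 bp long at rank 86.5 in GFP+ nuclei, with summits 30 bp apart in the promoter printed above. The difference of -1.84 points was -15.1 with ranks by area per bp. In the body, 7 of 8 GFP- peaks and all 7 GFP+ peaks were shared. The highest, at chr11:43820580-43821429, ranked 86.1 in GFP- and 85.1 in GFP+ nuclei with its summits on the same base. The intronic peak at chr11:43865476-43866430, between both starts, ranked 85.0 and 78.8, and the one at chr11:43790389-43790828 ranked 75.6 and 68.9. Upstream of the outer start there were 6 GFP- peaks, of which 3 were shared, and 3 GFP+ peaks, all shared. The highest of these ranked 75.8 in GFP- and 66.6 in GFP+ nuclei, and its neighbours ranked 48.4 and 27.2 and, in the opposite order, 34.5 and 44.6.

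**Figure D2:**
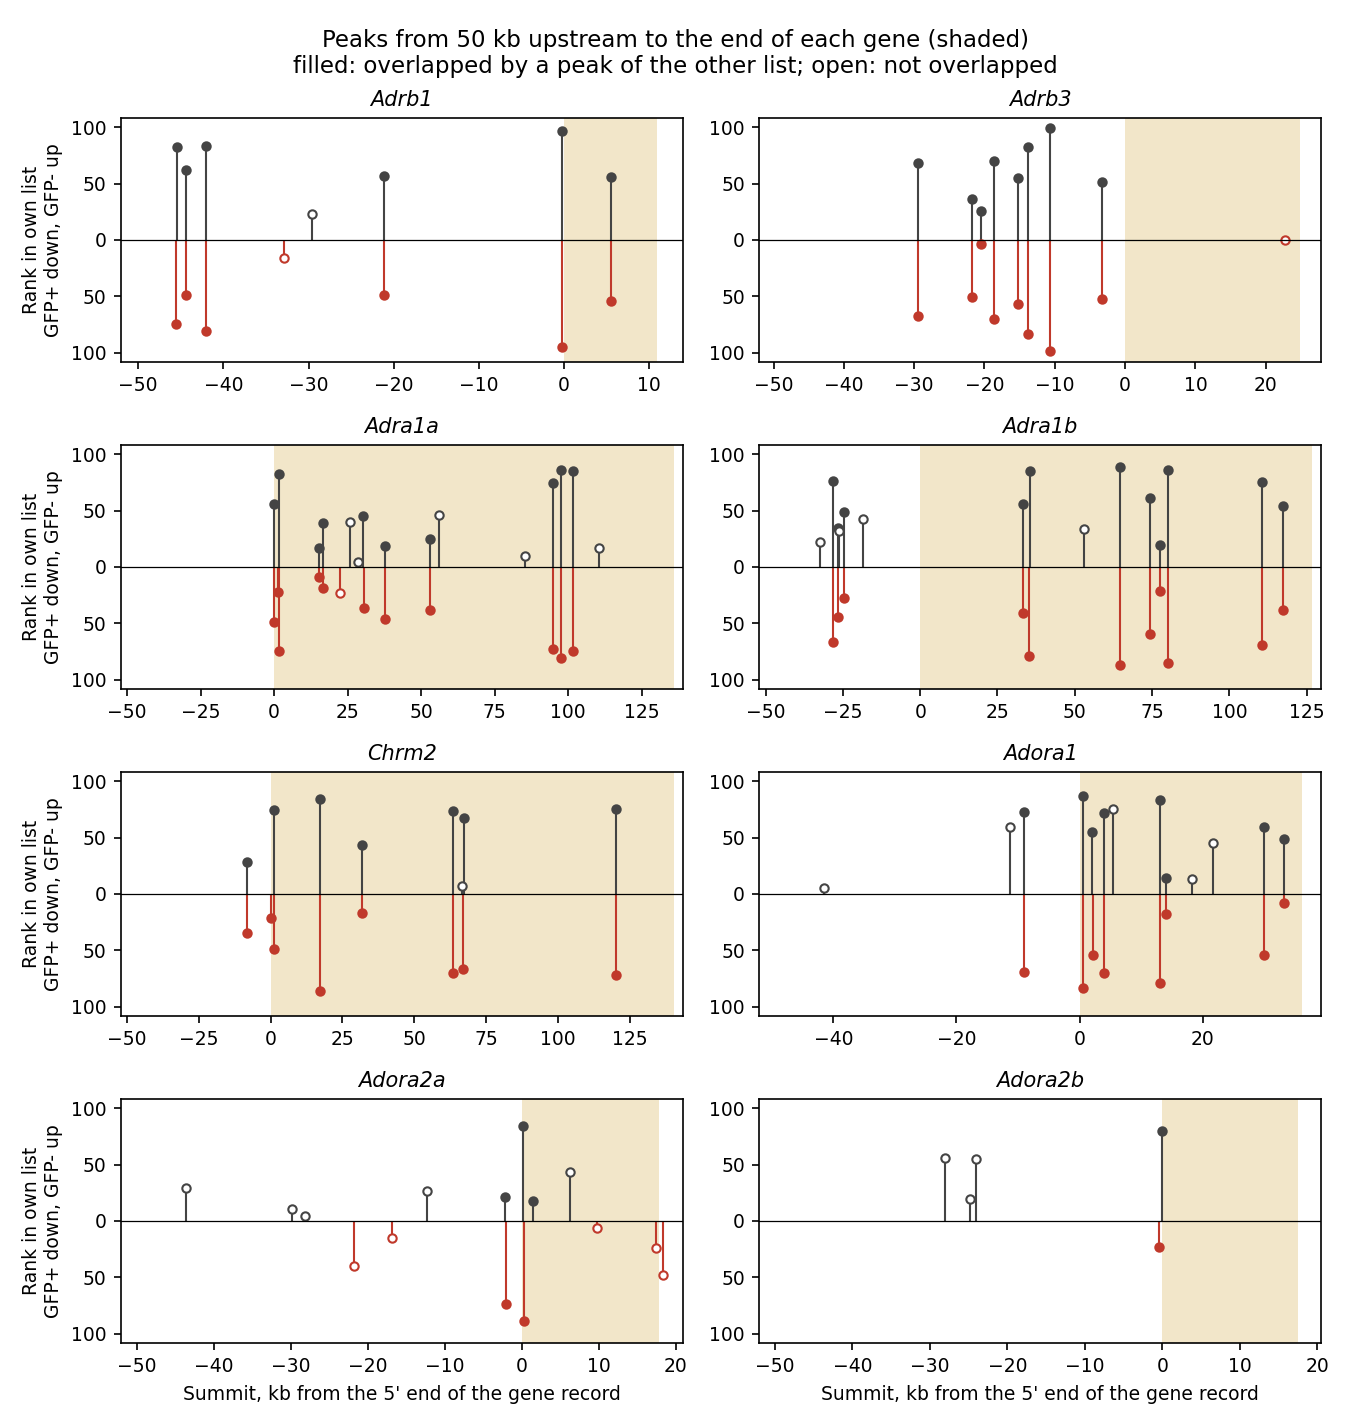
Every peak of each receptor, placed by the distance of its summit from the start of the gene record (kb, shaded record to the right of 0) and drawn as a line as long as its percentile rank, upwards for GFP- (dark) and downwards for GFP+ nuclei (red), with open circles where the other list has no overlapping peak. Of the *Adra1b* body peaks, 7 of 8 dark and all 7 red lines have a partner across the axis, and 3 of its 6 dark upstream lines do. *Adora1* has open dark circles at ranks 74.9 and 59.1, and *Adora2b* has a single short red line opposite 4 dark ones.

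*Chrm2*, the muscarinic receptor through which the vagus slows the heart, had 1 of the 2 large differences at its start and close ranks along its body. The gene lies at chr6:36388084-36528414 on the + strand. In GFP- nuclei a single peak of 1902 bp (chr6:36387894-36389795, area 1713, rank 74.5) ran over both starts, with its summit 1280 bp into the gene. GFP+ nuclei had 2 peaks along the same stretch. One of 359 bp (chr6:36388039-36388397, area 340, rank 21.5) lay at the starts, and one of 1036 bp (chr6:36388943-36389978, area 670, rank 48.6) lay in the intron with its summit 10 bp from that of the GFP- peak. The difference of -53.0 points depended on how the peaks were ranked and joined. It was -25.9 when starts were widened to 1000 bp, -23.7 when summit p-values set the ranks, and it turned to 3.66 (rank 12.0 in GFP- and 15.6 in GFP+) with peaks ranked by area per bp. The region is also the start of 9330158H04Rik, and ATAC-Seq does not tell the strands apart.

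Along the *Chrm2* body, 5 of 6 GFP- peaks and all 6 GFP+ peaks were shared. The highest-ranked peak of the gene in both lists was not at its start but 17175 bp inside (chr6:36404912-36405795), at rank 84.4 in GFP- and 86.3 in GFP+ nuclei. The intronic peak at chr6:36507936-36508349 ranked 75.1 and 71.9, the one at chr6:36451487-36451888 ranked 73.4 and 69.8, and the one at chr6:36455075-36455445 ranked 67.1 and 66.5. A wider gap was seen at chr6:36419691-36420073, where the GFP- peak ranked 43.7 and the GFP+ peak 16.9. The only upstream peak was shared, at rank 28.0 and 34.8.

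*Adora1*, the adenosine receptor that slows conduction and heart rate, had a start peak in both lists and the highest unshared peak of all the receptors. The start peak of 1213 bp in GFP- nuclei (chr1:134234199-134235411, rank 86.7) and of 1410 bp in GFP+ nuclei (chr1:134234251-134235660, rank 83.1) reached all 4 starts of the record (chr1:134199223-134235431, - strand), with summits 4 bp apart. The difference of -3.66 points was -23.6 with ranks by area per bp (77.4 in GFP- and 53.7 in GFP+). In the body, 6 of 9 GFP- peaks and all 6 GFP+ peaks were shared. The peak at chr1:134222151-134223049 ranked 83.1 in GFP- and 78.9 in GFP+ nuclei with both summits on the same base, and the peak at chr1:134231191-134231779 ranked 71.4 and 70.3. At the far end, a peak over a UTR (chr1:134201941-134202366) went from rank 48.8 to 7.98.

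Between these shared peaks, an intronic GFP- peak of 798 bp 5369 bp into *Adora1* (chr1:134229829-134230626, rank 74.9) overlapped no GFP+ peak. The 201 bases around its summit are shown because no other unshared peak of the receptors ranked as high, and the only searched word in them was the E-box, in capitals.
Adora1 intron, chr1:134229962-134230162, - strand: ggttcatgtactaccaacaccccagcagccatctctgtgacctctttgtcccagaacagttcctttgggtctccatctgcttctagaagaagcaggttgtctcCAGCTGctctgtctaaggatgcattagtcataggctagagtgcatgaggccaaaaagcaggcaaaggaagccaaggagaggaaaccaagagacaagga
The E-box was found around 22.1% of all GFP- and 18.5% of all GFP+ summits. Upstream of *Adora1*, the peak nearest to the gene was shared at rank 72.3 in GFP- and 69.3 in GFP+ nuclei, and a GFP- peak with its summit at position -11348 (chr1:134246561-134246995, rank 59.1) was not.

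*Adora2a*, the adenosine receptor of coronary dilation, was the only receptor with a higher start rank in GFP+ nuclei. Its main start peak was 1793 bp long in GFP- nuclei (chr10:75316396-75318188, area 2846, rank 84.4) and 2147 bp long in GFP+ nuclei (chr10:75316352-75318498, area 3494, rank 88.4). The difference of 4.04 points turned to -5.06 when summit p-values set the ranks. The upstream peak nearest to the record (chr10:75316877-75334784, + strand), with summits at positions -2164 and -2065, was 533 bp long at rank 21.7 in GFP- nuclei (chr10:75314478-75315010) and 909 bp long at rank 73.5 in GFP+ nuclei (chr10:75314470-75315378). This was the largest rise in rank in GFP+ nuclei among the shared peaks of the receptors apart from a short GFP- peak of rank 17.8, which overlapped the edge of the GFP+ start peak.

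The lists did not share the other *Adora2a* peaks. Of its 4 starts, 3 lay at a GFP- peak and 2 at a GFP+ peak, since a GFP- peak of 800 bp at rank 43.5 (chr10:75322937-75323736) had no GFP+ partner. GFP+ nuclei had 3 unshared body peaks, an intronic one at rank 6.61 and 2 at the far end of the gene at ranks 23.5 and 47.6, the higher running past the end of the record. In the upstream stretch, which overlaps *Specc1l*, 4 GFP- peaks at ranks from 4.42 to 29.5 and 2 GFP+ peaks at ranks 15.2 and 40.3 were unshared.

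*Adora2b*, the adenosine receptor of lower affinity, had the largest difference of the receptors by area and by summit p-value, while *Adra1a* had the largest by area per bp. Its start peak was 1825 bp long in GFP- nuclei (chr11:62248316-62250140, area 2239, rank 80.1) and 591 bp long in GFP+ nuclei (chr11:62248506-62249096, area 354, rank 23.0). The GFP- peak ran over 33.6% of the 996 coding bases and had its summit 25 bp into the gene (chr11:62248984-62266453, + strand), inside the promoter printed above. The GFP+ peak reached no coding base, and its summit lay at position -401 from the start of the gene. The difference was -57.1 points by area, -49.3 by summit p-value and -23.6 by area per bp (27.2 in GFP- and 3.60 in GFP+), lower in GFP+ nuclei each time. Neither list had a body peak. The 3 upstream peaks were found in GFP- nuclei alone, at ranks 55.4 (chr11:62220655-62221367, within *Specc1*), 54.7 (chr11:62224796-62225148) and 19.4.

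When the GFP- list was cut to the length of the GFP+ list by removing its smallest peaks, which lowers the GFP- ranks, the differences at *Chrm2* and *Adora2b* were -47.6 and -52.8 points, from GFP- ranks of 69.1 and 75.8. The small differences at *Adra1a* and *Adra1b* turned to 2.58 and 0.666. When the smallest peaks of each list, its lowest 25% by area, were left out, *Chrm2* and *Adora2b* had no start peak in GFP+ nuclei. Cell type markers moved in several directions between the same lists. Of 8 endothelial markers, 6 were higher at their start in GFP+ nuclei by at least 20 points, *Tek* was lower by that margin, and *Pecam1* and *Erg* had a start peak in GFP+ nuclei alone. All 7 cardiomyocyte markers had a start peak in both lists, at ranks from 86.3 to 100 in GFP- and from 79.6 to 100 in GFP+ nuclei, with a median difference of -4.19. Of 7 fibroblast markers 6 had a start peak in GFP- nuclei, at up to rank 96.5, and 2 in GFP+ nuclei, at ranks 80.7 and 87.0, where *Dpt*, *Tcf21*, *Col1a2* and *Dcn* had none. *Lum* had none in either list. Of 6 mural cell markers all had a start peak in GFP- nuclei, at ranks from 16.2 to 85.6, and 3 had one in GFP+ nuclei, where *Pdgfrb*, *Rgs5* and *Acta2* had none. Of the 5 macrophage markers *Cd68* alone had a start peak, at rank 31.8 in GFP- and 16.8 in GFP+ nuclei. The part of these markers in the lower ranks of *Chrm2* and *Adora2b* was not tested.

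Over all 8 receptors there were 39 body peaks in GFP- nuclei, of which 29 (74.4%, Wilson 95% interval 58.9 to 85.4%) overlapped a GFP+ peak, against 66.4% of the body peaks of all protein-coding genes. Counted from the GFP+ list, 30 of 35 (85.7%, 70.6 to 93.7%) were shared, against 83.9% over all genes. Upstream, 18 of 31 GFP- peaks (58.1%, 40.8 to 73.6%) were shared, against 77.0% over all genes, and 18 of 21 GFP+ peaks (85.7%, 65.4 to 95%), against 89.0%. In each list, 2 of the upstream peaks of the receptors lay at starts of other genes. Values for upstream peaks over all genes also include such peaks, in a number not counted. They take a peak once for each gene it lies before, so these shares are not like for like. The intervals cover counting error only, and peaks of 1 gene are not independent. The share over all genes lay outside the interval for the upstream GFP- peaks alone, which is not a test for the same reason. That share of 58.1% also changed with the setting. It was 72.7% within 20 kb, 59.6% within 100 kb and 64.3% with the lists at equal length. Without the lowest 25% of each list it was 66.7%, and with overlap of at least 50% of both peaks 54.8%. Shares over all genes are not given for these settings. Of the 13 unshared GFP- peaks there, 4 belonged to *Adora2a*, 3 each to *Adora2b* and *Adra1b*, 2 to *Adora1* and 1 to *Adrb1*. *Adrb3* shared all of its 8, but all of these except the nearest overlapped the record of another gene.

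Unshared body and upstream peaks of the receptors ranked lower than shared ones by their medians. The same split was not made over all genes, so this is not read as particular to the receptors. In GFP- nuclei the unshared body peaks of the receptors had a median rank of 25.1 and the shared ones of 59.1, and 4 unshared GFP- peaks, 2 at *Adora1* and 2 at *Adora2b*, reached rank 50. The highest unshared GFP+ body peak ranked 47.6 and the highest unshared GFP+ upstream peak 40.3. Where a GFP- body peak was shared, the overlapping GFP+ peak ranked lower in 23 cases and higher in 6, with a median difference of -3.61 points, against -2.38 and 61.5% lower over all genes. This median turned to 2.08 when the GFP- list was cut to the length of the GFP+ list. For shared upstream peaks the GFP+ peak was lower in 10 cases and higher in 8, with a median difference of -0.773, against -1.48 and 64.8% lower over all genes. This median turned to 3.47 with the lists at equal length and to 0.278 within 20 kb. The distance between the summits of a shared GFP- peak and its GFP+ partner was at most 50 bp for 42 of 54 pairs (77.8%), with a median of 10.5 bp, against 75.4% and 19.0 bp for all shared GFP- peaks.

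**Figure D3:**
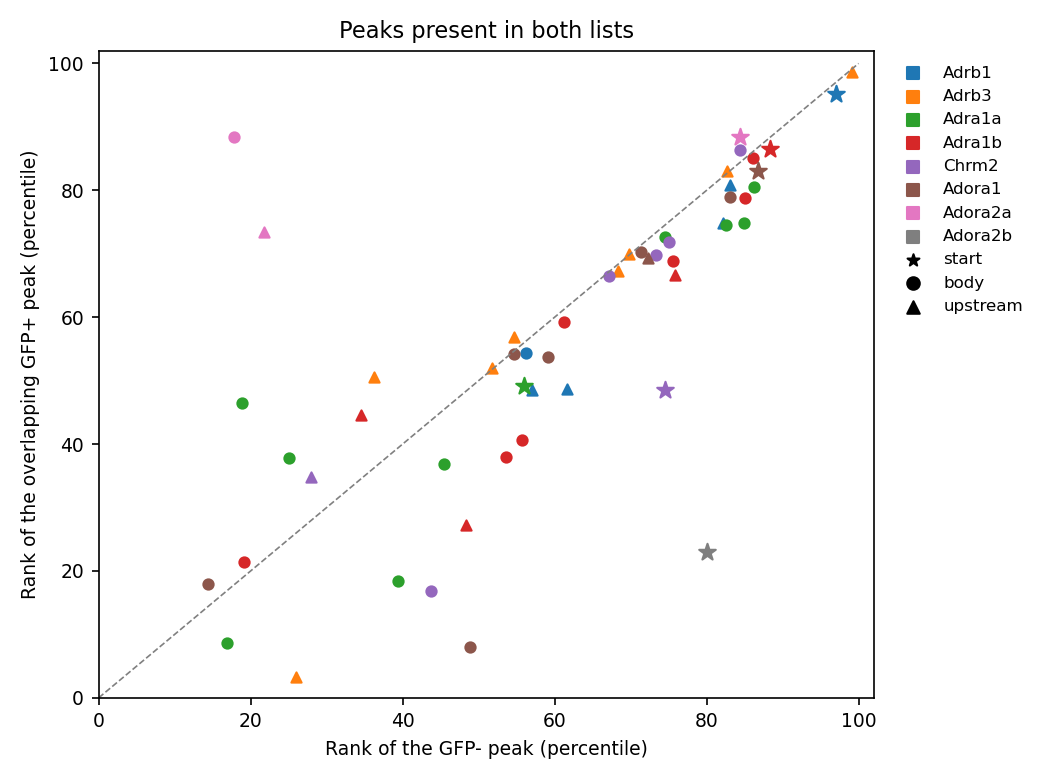
Percentile rank of each shared GFP- peak of the receptors (horizontal axis) and of its highest-ranked overlapping GFP+ peak (vertical axis), with colours for genes, shapes for the position in the gene and a dashed line at equal rank. Most points above rank 60 lie near the line, the grey star of *Adora2b* and the purple star of *Chrm2* (paired here with the intronic GFP+ peak at rank 48.6) lie far below it, and the pink *Adora2a* points at GFP- ranks 17.8 and 21.7 lie far above it.

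Base composition was then compared between starts with and without peaks, over the 250 bp to either side. The 18 receptor starts with a peak in both lists had a median G and C content of 61.6% and a median observed over expected CpG ratio of 0.714. The 7 starts with a peak in neither list had 55.9% and 0.319. Over all starts of protein-coding genes these values were 63.5% and 0.788 with a peak in both lists, and 48.3% and 0.239 with a peak in neither. The *Adrb1* start at the first base of the record was the richest in G and C among the receptors, at 78.6%. The 5 *Adrb3* starts ranged from 0.103 to 0.323 in CpG ratio, and the inner and outer *Adra1b* starts had 0.791 and 0.325. *Adra1a* combined a G and C content from 47.9 to 54.5% with CpG ratios from 0.595 to 0.730. The *Chrm2* starts, at 54.5 and 55.3%, and the *Adora2b* start, at 68.9%, were not alike in composition. Starts of 1 gene overlap in sequence, and these values are descriptions.

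Around the summits (201 bp) of the 78 GFP- and 63 GFP+ peaks of the receptors, the commonest searched words were the E-box, at 18 GFP- peaks (23.1%, against 22.1% of all GFP- peaks) and 14 GFP+ peaks (22.2%, against 18.5%), and AP-1, at 10 (12.8%, against 10%) and 8 (12.7%, against 7.74%). The GC box was found at 8 GFP- peaks (10.3%, against 17.2%) and 9 GFP+ peaks (14.3%, against 19.5%). The TEAD word was found at 6 and 3 peaks (7.69% and 4.76%, against 5.09% and 4.78%), and the TATA box at 6 and 6 (7.69% and 9.52%, against 6.69% and 6.88%). The GATA word was found at 5 GFP- peaks (6.41%, against 3.17% of all GFP- peaks) and 3 GFP+ peaks (4.76%, against 3.27%). The MEF2 word was found at 4 GFP- peaks (5.13%, against 1.68%) and 3 GFP+ peaks (4.76%, against 1.92%), among them the intronic *Adrb1* peak. The ETS word was found at 1 peak of each list (1.28% and 1.59%, against 2.90% and 3.19%), and the CRE word, the site of the factor that cyclic AMP activates, at none. With counts this small, no difference from all peaks can be read from these shares.

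By the pair of start ranks, the genes most like *Chrm2* were *Megf10* (73.6 in GFP- and 21.3 in GFP+) and *A4galt* (74.4 and 22.6), and 3 genes in all lay within 2 points of it. No gene lay within 2 points of *Adora2b*, and the nearest were *Shc3* (77.0 and 24.6) and *Rcn3* (75.7 and 24.4). For *Adrb1*, in contrast, 1563 genes lay within that distance, the nearest being *Fbxo47* and *Dcbld2*. The nearest genes were *Gsx1* and *Stox1* for *Adra1a*, *Sars* and *Exoc6b* for *Adra1b*, *Rpl7l1* and *Ehd3* for *Adora1*, and *Gcc2* and *Gm9922* for *Adora2a*. Likeness here rests on 2 lists only.

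The receptors act through a common set of G proteins, enzymes and channels, and 59 other genes of this pathway were examined in the same way. A start peak was present for 53 of them in GFP- and 51 in GFP+ nuclei, against 61.8% and 59.8% of all protein-coding genes. The start rank was lower in GFP+ nuclei by at least 20 points for 3 and higher by that margin for 1. Over all genes with a start peak these shares were 7.33% and 1.94%. The median difference of the pathway genes was -2.35 points, against -0.814 over all genes with a start peak. The pathway median was -0.208 with the lists at equal length and -5.10 with peaks ranked by area per bp. Of the 9 other receptors of these families, 4 had a start peak. By area all 4 ranked lower in GFP+ nuclei, as did 71.4% of all genes with a start peak. The order was the same by summit p-value, by area per bp and with the lists at equal length. Their median difference was -16.5 by area but -2.61 with the lists at equal length, where 3 of the 4 stayed within 10 points. *Adra2b* went from 83.7 in GFP- to 54.1 in GFP+ nuclei, *Adra1d* from 81.6 to 73.0, *Adra2a* from 26.2 to 9.82 and *Chrm3* from 24.6 to 7.90. *Adra2c*, *Chrm1*, *Chrm4*, *Chrm5* and *Adora3* had no start peak in either list.

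All 9 G protein subunit genes had a start peak in both lists, with medians of 98.3 in GFP- and 99.0 in GFP+ nuclei and differences from -5.36 to 2.12, the highest at *Gnb1*. The median difference was -0.120 by area, -8.07 by area per bp and 0.134 with the lists at equal length. The 8 adenylyl cyclase and phosphodiesterase genes, which make and break down cyclic AMP, all had a start peak in both lists. By area all 8 ranked lower in GFP+ nuclei, with differences from -14.3 to -0.228 points, but 2 of the 8 ranked higher with the lists at equal length. Kinases and phospholipases, of which 10 of 11 genes had a start peak, had a median difference of -1.07, and *Plcb1*, a phospholipase C, went from 87.0 to 90.6. Among 11 genes that end receptor signals, *Grk3*, a receptor kinase, went from 65.0 to 39.5, *Rgs4* had a GFP- start peak at rank 19.9 and none in GFP+ nuclei, and *Rgs2* went from 94.4 to 96.2. Of the 6 effectors, *Kcnj3*, a subunit of the potassium channel opened by *Chrm2* and *Adora1*, went from 72.0 to 79.4. *Nos3*, the endothelial nitric oxide synthase, went from 39.4 to 85.5 and was the gene with the largest rise. Of the 5 genes of adenosine supply, *Ada*, which breaks adenosine down, went from 54.1 to 33.4.

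**Figure D4:**
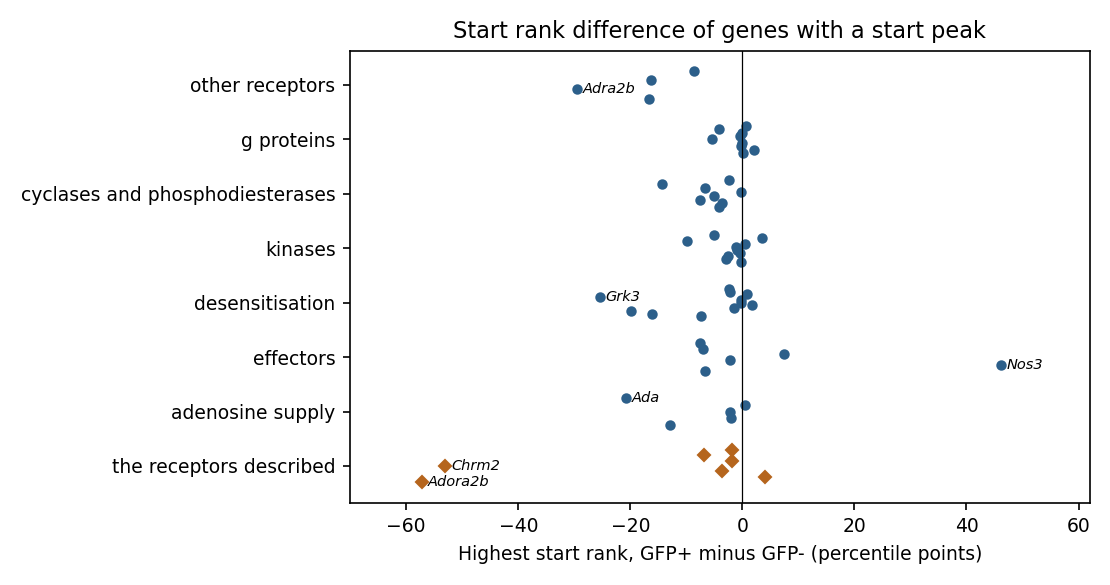
Difference in the highest start rank, GFP+ minus GFP- (percentile points, horizontal axis), of each pathway gene with a start peak (blue points, grouped by role on the vertical axis) and of the 7 receptors with one (brown diamonds), with names at differences of at least 20 points. Most points lie near 0, *Chrm2* and *Adora2b* lie at -53.0 (3.66 with ranks by area per bp) and -57.1, and *Nos3* lies at 46.1.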

How the data were processed

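ATAC-Seq libraries of GFP- and GFP+ heart nuclei, 2 replicates each, were mapped by the authors to mm10 with bowtie2, filtered with samtools, cleared of duplicates with Picard and downsampled, and peaks were called with Genrich on both replicates together, leaving out mitochondrial reads. The area column that was deposited is a signal summed over each peak. A score, which the authors' caller derived from area and length, was deposited too but not used. For the −log10 p-values the authors' caller took the summit of each peak. The lists hold 78912 GFP- and 65008 GFP+ peaks, so that the same rank stands for more peaks in GFP- nuclei. Replicates and read depths are not analysed here, and the limit on precision is a single list per population.

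Peaks were compared with the GENCODE M21 annotation, without the Y and mitochondrial chromosomes, and the GRCm38.p6 sequence, past whose chromosome ends 0 peaks ran. Gene lists are counted by symbol. Calculations used Python 3.11.15, numpy 2.4.6, pandas 2.3.3, scipy 1.17.1, pysam 0.24.0 and samtools 1.23.1, and matplotlib 3.10.9 drew the figures. The overlap step, the presence of start peaks and the peak classes were tested on simulated data, and the rank values were not. Described by name were all 8 receptors, the other receptors of the pathway list, its 5 genes of largest rank difference in each direction, the 3 highest peaks per list in each body and upstream stretch, unshared peaks of at least rank 50 and the 2 genes nearest in start ranks. Further peaks were named after their values were seen. The receptors and lists were chosen with earlier results of these data known. Alternatives changed the start window and starts counted, the ranking measure, the overlap, the upstream distance and the lists' length. One further marker list is not reported here.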

Additional observations from a re-analysis of the deposited data

How the results depend on the processing

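Alternatives gave 130 values. Of those for summaries, 66 stayed within the set limits, 7 moved and 1 reversed, and of those for single receptors 50 stayed, 5 moved and 1 reversed. These limits were wide. A single receptor stayed if its difference changed by less than 20 points, so changes of sign at *Adrb1*, *Adra1a*, *Adra1b* and *Adora2a* counted as stayed. So did the values of *Adrb3*, all at or near 0. A median stayed if it lay within its first interval, which for the receptors ran from -57.1 to 4.04. The counts are therefore no measure of stability. With the GFP- list cut to the length of the GFP+ list, the median rank difference of shared body peaks reversed from -3.61 to 2.08, that of shared upstream peaks was 3.47 and the pathway median -0.208. The cut lowers GFP- ranks by its construction. With peaks ranked by area per bp, *Chrm2* reversed from -53.0 to 3.66 and the pathway median was -5.10. The cause was not tested. Within 20 kb upstream there were 11 GFP- and 9 GFP+ peaks, and within 100 kb 47 and 34. No paired analysis was possible because each list pools both replicates, and for the same reason leaving out a replicate was not possible. The depth of the libraries is not known from the lists, so an absent peak means only that none was called.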
